A study of Capra hircus with 9 samples.

Results

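Chemokine ligands and chemokine receptors were taken as one group of genes from RNA-seq libraries labelled as goat submandibular gland. A gene was a member when its symbol began with CCL, CXCL, CX3CL, XCL, CCR, CXCR, CX3CR, XCR or ACKR followed by a number, or when its product description named a C-C, C-X-C, X-C or atypical chemokine ligand or receptor. Of the 21665 genes listed, 64 met this rule, 46 by symbol and 18 by description, and 36 of them were ligands and 28 receptors. They encode 54 products, because several loci carry the same product name. In 61 members the expected count exceeded 3 in at least 1 library, and in 30 it did so in all 9 libraries. The filter on low counts let 52 members into at least 1 comparison, while 12 entered none.

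Samples labelled as submandibular gland came from healthy female Lubo goats raised under the same conditions, 3 at 1 month, 3 at 12 months and 3 at 24 months of age, with 1 library per goat. No treatment or genetic change was applied, so age is the labelled difference between the groups. RNA was extracted from the tissue as a whole. Levels are given in CPM, counts scaled to a common library size, which are adjusted for the depth of a library but not for the length of a gene, and a level of 1 gene is therefore not compared with that of another.

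Chemokines are small secreted proteins that guide leukocytes along concentration gradients through receptors coupled to inhibitory G proteins. Homeostatic ligands such as CCL19, CCL21, CCL25, CXCL12 and CXCL13 position lymphocytes in lymph nodes and thymus, whereas inflammatory ligands such as CCL2, CCL5 and CXCL10 are made on demand and draw monocytes and effector T cells. In salivary and other mucosal glands CCL28 attracts plasma cells that carry CCR10 and secrete IgA, and atypical receptors bind chemokines without coupling to G proteins and remove them.

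The libraries held 11546808 to 17586065 expected counts at 1 month, 18231894 to 21065278 at 12 months and 22040776 to 24901065 at 24 months, and 3 counts corresponded to 0.145 to 0.19 CPM. The library labelled 1-month replicate 2 stood apart from the rest. Its correlation of log CPM with the other 1-month libraries was 0.823 and 0.81, against 0.951 between those and 0.928 to 0.978 within the older groups. Its 5 markers of the salivary acinus summed to 96.4 CPM, against 17832 and 24374 in the other 1-month libraries and 76957 to 155919 in the older ones, and AQP5, the acinar water channel, stood at 0.493 CPM there. The tissue label was thus not borne out by these markers in that library. Thymocyte markers (RAG1, RAG2, DNTT, PTCRA and CD8B) summed to 2173, 6284 and 956 CPM in the 1-month libraries and to 0.44 to 3.31 in the older ones. Thymic epithelial markers, among them FOXN1, summed to 197, 784 and 74.7 CPM at 1 month and to 0.041 to 0.349 later. Markers of mature T cells summed to 625, 2523 and 433 CPM at 1 month and to 9.01 to 15.4 later. Neutrophil markers were highest in 1-month replicate 3, at 646 CPM, against 8.58 and 43.8 in the other 1-month libraries and 0.465 to 3.56 in the older ones. The part these cells had in the results below was not tested, and in bulk tissue fewer cells of a type and less RNA per cell cannot be told apart. Thymocyte and thymic epithelial markers separated the 1-month libraries from all older ones. A difference in the tissue sampled therefore cannot be told apart from age here.

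**Figure D1:**
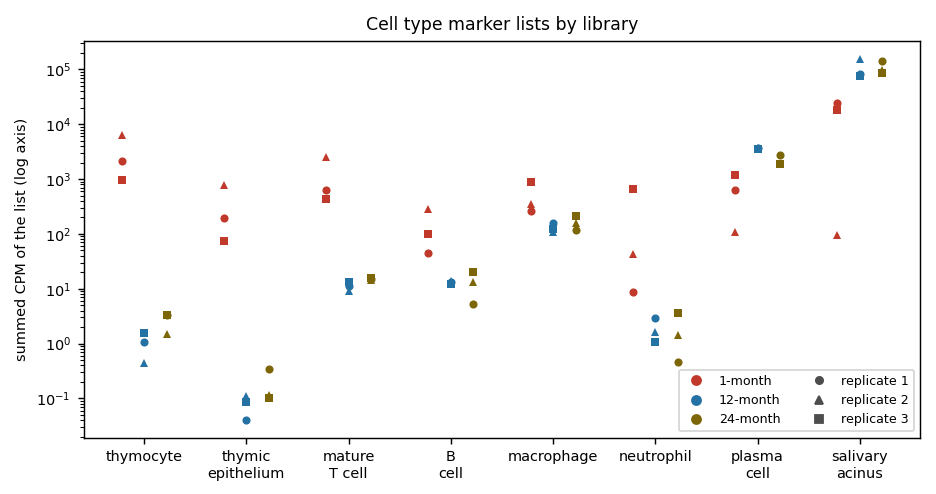
Summed CPM of 8 cell type marker lists (log axis) in each of the 9 libraries, coloured by age and with 1 symbol per replicate number. Thymocyte and thymic epithelial markers were high in the 3 libraries at 1 month, and the 1-month replicate 2 library stood lowest for acinus and plasma cell markers.

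The first question was which chemokines and receptors differed between the young gland and the glands at 12 and 24 months. Each pair of ages was fitted with edgeR's quasi-likelihood test, and a gene passed when its Benjamini-Hochberg adjusted p was under 0.05 and its log2 fold change lay beyond -2 or 2. At 12 months 21 of 50 tested members (42.0%) passed, against 11.7% of all 14884 genes tested. Of these 19 were lower than at 1 month (38.0%, against 9.52% of all genes) and 2 were higher (4.0%, against 2.16%). At 24 months 15 of 50 passed (30.0%, against 13.4% of 14954 genes), 14 of them lower (28.0%, against 9.16%) and 1 higher (2.0%, against 4.25%). The median log2 fold change of the tested members was -2.10 at 12 months and -1.86 at 24 months, where the medians of all genes were -0.02 and -0.01. Both comparisons share the 1-month libraries. The words tested, passed, rose and fell below refer to edgeR's quasi-likelihood test and its filter on low counts where no other tool is named. Fold changes of single genes are given below on the log2 scale as older minus younger ± SE, from 3 libraries per group. An unadjusted p under 0.05 was reached by 32 of the 50 tested members at 12 months (37.8% of all genes) and by 26 of 50 at 24 months (34.3% of all genes). The libraries of 29 members did not overlap between the ages in either comparison with 1 month, which is 58.0%, against 53.6% of all genes at 12 months and 43.7% at 24 months. Of these 26 were lower in the older group (52.0%, against 27.0% and 23.5% of all genes) and 3 were higher (6.0%, against 26.6% and 20.2%).

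The same 13 members passed in both comparisons: the ligands CCL17, CCL19, CCL22 and CCL25 and the receptors CCR4, CCR7, CCR8, CCR9, CXCR4, CXCR5, CCR10 and CCR1, the last at 2 loci. Without 1-month replicate 2 the count at 12 months was 33 (30 lower, against 10.4% of all genes, and 3 higher, against 2.13%, together against 12.5%), and the 21 members called with all libraries were among them. Without it the count at 24 months was 25, with 25 lower (9.73% of all genes) and 0 higher (4.38%), against 14.1% in both directions, and 14 of the 15 were among them, CCR10 being the exception. Leaving out 1 library of the older group left fewer members past the test. The count at 12 months was 0 without 12-month replicate 1, 0 without replicate 2 and 1, CCR7, without replicate 3. It was 18 without 1-month replicate 1 and 12 without 1-month replicate 3. At 24 months it was 10, 6 and 4 without 24-month replicates 1, 2 and 3, and 19 and 13 without 1-month replicates 1 and 3. The share of all genes called is not given for these fits, so a loss of calls particular to the members is not shown. Without 1-month replicate 3 the calls lost at 12 months were those of CCL4, CCL26, CXCL9, CXCL14, CCR1, LOC102179993, CCR8, CCR10 and XCR1, and without 1-month replicate 1 those of CXCL9, CXCL14 and CCR8. At 24 months CCR2 was lost without either library and CCR10 without 1-month replicate 3. The calls named below are those with all libraries of both ages.

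**Figure D2:**
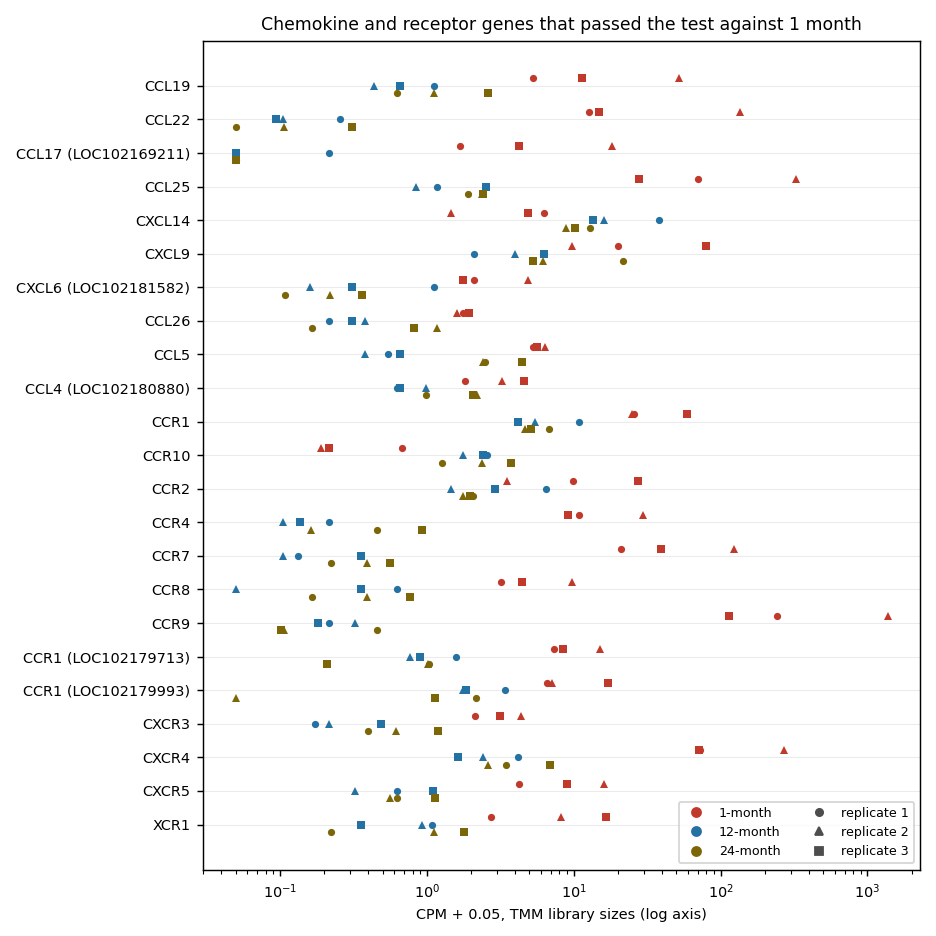
CPM + 0.05 (log axis) of the 23 gene loci that passed the test in at least 1 comparison with 1 month, with 1 point per library coloured by age and 1 symbol per replicate number. CCR10 and CXCL14 had higher group means at the older ages, and the other 21 had lower ones. Single libraries overlapped with those at 1 month for some loci, such as CXCL9, CCR2 and CCL4.

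Among the homeostatic ligands and their receptors CCR9 had the largest fitted fall, and its ligand CCL25 fell as well. CCR9, the receptor that thymocytes and gut-homing lymphocytes carry, stood at 241, 1375 and 114 CPM at 1 month, 0.165, 0.275 and 0.131 at 12 months and 0.407, 0.0566 and 0.0516 at 24 months. Every library at 1 month was more than 100 CPM and every older library less than 1 CPM. CCR9 fell at both ages (log2 fold change -11.57 ± 1.44, adjusted p = 0.00833 at 12 months and -11.58 ± 1.54, adjusted p = 0.00482 at 24 months). The older libraries held so few CCR9 counts that the size of the fold is imprecise. CCL25, its ligand, which thymic epithelium and small intestine make, stood at 70.0, 327 and 27.9 CPM at 1 month, 1.13, 0.8 and 2.49 at 12 months and 1.87, 2.34 and 2.35 at 24 months, so that the groups did not overlap. It fell by 6.56 ± 1.16 on the log2 scale at 12 months (adjusted p = 0.015) and by 5.94 ± 0.991 at 24 months (adjusted p = 0.00885). In contrast to CCR9, CCL25 was above 3 counts in each older library. Both genes were highest in 1-month replicate 2 and lowest in 1-month replicate 3, the order of the thymocyte and thymic epithelial markers in those libraries. Without replicate 2 the 1-month mean was 177 CPM for CCR9 and 48.9 CPM for CCL25, and the falls at 12 months were -9.87 ± 0.497, adjusted p = 0.000248 and -5.03 ± 0.582, adjusted p = 0.00199.

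CCR7, which takes naive T cells and mature dendritic cells to lymph nodes and the thymic medulla, stood at 21.0, 124 and 39.4 CPM at 1 month, 0.0825, 0.0548 and 0.306 at 12 months and 0.174, 0.339 and 0.516 at 24 months. The lowest library at 1 month was far above the highest older one. CCR7 fell at both ages (-8.64 ± 1.1, adjusted p = 0.0084 and -7.38 ± 0.925, adjusted p = 0.00412), with -7.63 and -6.33 when 1-month replicate 2 was left out. Of its ligands, CCL19 and CCL21, the former fell and the latter did not pass the test. CCL19 stood at 5.25, 52.3 and 11.3 CPM at 1 month, 1.07, 0.385 and 0.611 at 12 months and 0.581, 1.07 and 2.58 at 24 months, again with no overlap with the 1-month group. Its fold changes were -5.06 ± 1.03, adjusted p = 0.0214 at 12 months and -3.93 ± 0.992, adjusted p = 0.031 at 24 months, and without 1-month replicate 2, the highest library, they were -3.60 ± 0.559, adjusted p = 0.00463 and -2.44 ± 0.681, adjusted p = 0.0278. CCL21 stood at 15.9, 44.7 and 53.1 CPM at 1 month, 19.0, 3.13 and 10.2 at 12 months and 5.23, 18.9 and 32.6 at 24 months, and its groups overlapped. Its fold changes were -1.77 ± 0.716, adjusted p = 0.122 and -0.88 ± 0.699, adjusted p = 0.412. Approximate 95% intervals were -3.17 to -0.36, below 0 throughout, and -2.25 to 0.49, mostly below 0. These and the other intervals of fold changes below used a normal approximation, which is too narrow with 3 libraries per group.

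CCR4 marks helper T cells of type 2, regulatory T cells and maturing thymocytes, and CCL17 and CCL22 are its ligands. CCR4 stood at 10.9, 29.6 and 9.12 CPM at 1 month, 0.165, 0.0548 and 0.0871 at 12 months and 0.407, 0.113 and 0.877 at 24 months, and fell at both ages (-7.12 ± 0.786, adjusted p = 0.0067 and -5.04 ± 0.875, adjusted p = 0.0102). CCL22 stood at 12.7, 136 and 14.8 CPM at 1 month and at no more than 0.258 CPM in any older library, and fell likewise (-8.86 ± 1.45, adjusted p = 0.013 and -8.89 ± 1.48, adjusted p = 0.00879). CCL17 was read from 2 loci, of which LOC102169211 held nearly all counts, with 1.63, 18.1 and 4.22 CPM at 1 month. At 12 months that locus had 3 counts over the group against 439 at 1 month, a ratio of 158 with an exact 95% counting interval of 53.8 to 771, and its fall passed the test (adjusted p = 0.0236). At 24 months the libraries of LOC102169211 were at 0, which makes it at least 51.8-fold lower when each library is set to 3 counts, and at least 19.0-fold lower without 1-month replicate 2 (adjusted p = 0.0151 with all libraries). For CCR4, CCL22 and CCL17 each older library lay below each library at 1 month, and 1-month replicate 2 was the highest. Leaving it out gave -6.88 and -6.87 for CCL22 and -6.42 and -4.31 for CCR4, each of which passed. CCR8, a receptor of regulatory T cells and late thymocytes, stood at 3.14, 9.72 and 4.42 CPM at 1 month and between 0 and 0.722 later, and fell at both ages (-4.24 ± 1.06, adjusted p = 0.0368 and -3.76 ± 0.857, adjusted p = 0.022). Its ligand CCL1, at 0.222, 0.528 and 0.417 CPM at 1 month and 0 in the 6 older libraries, did not pass the filter on low counts in edgeR, while DESeq2, which filters otherwise, called it at 12 months.

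CXCR4, the receptor by which CXCL12 holds precursors and plasma cells in bone marrow and thymus, stood at 72.0, 269 and 71.5 CPM at 1 month, 4.12, 2.36 and 1.57 at 12 months and 3.43, 2.54 and 6.86 at 24 months. Each older library was below each library at 1 month, and CXCR4 fell at both ages (-5.67 ± 0.792, adjusted p = 0.00973 and -4.92 ± 0.761, adjusted p = 0.00741). The fold changes were -4.74 and -3.97 without 1-month replicate 2, the highest library. CXCL12, which stromal cells make, stood at 230.4, 171 and 277 CPM at 1 month, 113, 53.1 and 65.9 at 12 months and 52.0, 57.8 and 52.0 at 24 months. Its groups did not overlap with the 1-month group either, but the difference was smaller. Its adjusted p was under 0.05 at both ages, while the fold change stayed within the threshold of 2 (-1.48 ± 0.367, adjusted p = 0.0361 and -1.94 ± 0.374, adjusted p = 0.0139). At 24 months that threshold was close, since the fold change was -2.02 with DESeq2's size factors, -2.07 with upper-quartile factors and -2.12 ± 0.296, adjusted p = 0.00185 without 1-month replicate 2, the lowest 1-month library for CXCL12. ACKR3, an atypical receptor that takes up CXCL12, did not pass (-1.31 ± 0.47, adjusted p = 0.0917 and -1.11 ± 0.514, adjusted p = 0.166). CXCR5, which leads B cells into follicles, stood at 4.18, 16.0 and 8.92 CPM at 1 month, 0.577, 0.275 and 1.05 at 12 months and 0.581, 0.509 and 1.08 at 24 months and fell at both ages (-3.88 ± 0.745, adjusted p = 0.0186 and -3.61 ± 0.688, adjusted p = 0.0135). Its ligand CXCL13 did not pass the filter on low counts, with 1.41, 0.282 and 11 CPM at 1 month and at most 0.577 later, but DESeq2 called it at both ages. With 1-month replicate 2 left out CXCL13 entered the test and passed at both ages (-4.45 ± 1.25, adjusted p = 0.0312 and -5.50 ± 1.16, adjusted p = 0.01). B cell markers summed to 45.3, 287 and 99.8 CPM at 1 month and to 5.17 to 20.2 later, in the same order of the 1-month libraries as CXCR5.

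The mucosal pair CCL28 and CCR10 lay in the opposite direction. CCL28 stood at 61.6, 0.0705 and 47.5 CPM at 1 month, 260.1, 280.4 and 242 at 12 months and 234, 136 and 144 at 24 months. Each older library was above each library at 1 month, and 1-month replicate 2 was under the level of 3 counts. With that library in the fit the difference did not pass (2.93 ± 1.49, adjusted p = 0.19 at 12 months and 2.37 ± 1.36, adjusted p = 0.255 at 24 months). Without it CCL28 passed at 12 months (2.26 ± 0.172, adjusted p = 0.000602), and at 24 months the adjusted p was under 0.05 with a fold change below the threshold (1.75 ± 0.376, adjusted p = 0.0106). CCR10 stood at 0.629, 0.141 and 0.167 CPM at 1 month, 2.51, 1.7 and 2.36 at 12 months and 1.22, 2.32 and 3.72 at 24 months, and rose at both ages (2.80 ± 0.665, adjusted p = 0.0327 and 3.01 ± 0.835, adjusted p = 0.0417). In 1-month replicates 2 and 3 CCR10 was under the level of 3 counts, so the size of these folds is imprecise. Scaled by library totals alone the difference of CCR10 was 2.29 with an adjusted p of 0.0589 at 12 months and 2.28 with an adjusted p of 0.0893 at 24 months, and neither passed. At 24 months it also missed the threshold with no filter on low counts (adjusted p = 0.0544) and with upper-quartile factors (adjusted p = 0.0515), and without 1-month replicate 2 it was 2.64 ± 0.89, adjusted p = 0.0545. CCR10 did not pass at either age without 1-month replicate 3 (adjusted p = 0.0953 and 0.132), without any of the 12-month libraries at 12 months or without any of the 24-month libraries at 24 months (lowest adjusted p = 0.0547). Plasma cell markers summed to 640.3, 108 and 1163 CPM at 1 month, 3673, 3734 and 3538 at 12 months and 2706, 1847 and 1878 at 24 months. Their sum, like CCL28, was lowest in 1-month replicate 2, but 0 of the 5 markers passed at either age, and MZB1 was highest in that library, at 67.6 CPM. CCR3, the other receptor of CCL28, was above 1 CPM only in 1-month replicate 3, at 7.06 CPM, and DESeq2 called it at both ages.

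CXCL14, a chemokine of resting epithelia, stood at 6.18, 1.41 and 4.81 CPM at 1 month, 38.1, 16.1 and 13.4 at 12 months and 12.8, 8.87 and 10.2 at 24 months. It rose at 12 months (2.52 ± 0.645, adjusted p = 0.0393) but not at 24 months (1.5 ± 0.568, adjusted p = 0.103), although its libraries did not overlap with those at 1 month at either age. The difference at 12 months did not pass when scaled by library totals alone (1.95, adjusted p = 0.0816) or with upper-quartile factors (2.45, adjusted p = 0.0518). Without 1-month replicate 1 or 3, or without any of the 12-month libraries, CXCL14 did not pass either, with fold changes of 1.93 to 2.86 over all libraries left out in turn. CCL27, the skin chemokine that also binds CCR10, stayed below 2 CPM in each library when its 2 loci were summed, and its summed fold changes were 0.66 ± 0.525 and 0.43 ± 0.868. CCR6, the receptor of mucosal dendritic cells, B cells and helper T cells of type 17, stood at 3.11, 4.72 and 11.1 CPM at 1 month, 2.35, 1.54 and 1.48 at 12 months and 0.872, 0.735 and 2.73 at 24 months. Its older libraries were each below those at 1 month, yet the fall did not pass (-1.75 ± 0.562, adjusted p = 0.0715 and -2.0 ± 0.75, adjusted p = 0.101). DESeq2 called CCR6 at 24 months. CCL20, its ligand, did not pass the filter in edgeR and exceeded 1 CPM only in 1-month replicate 3. CXCL17, a mucosal ligand, was at most 0.11 CPM.

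Ligands of CXCR3 are induced by interferon and draw activated T cells. CXCL9 stood at 19.9, 9.69 and 80.1 CPM at 1 month, 2.06, 3.96 and 6.24 at 12 months and 21.7, 6.16 and 5.21 at 24 months, and CXCL10 at 17.6, 7.11 and 95.2 CPM at 1 month, 4.78, 5.28 and 6.42 at 12 months and 24.8, 12.3 and 3.92 at 24 months. Both were highest in 1-month replicate 3 and spread widely among the 1-month libraries. CXCL9 fell at 12 months (-3.06 ± 0.848, adjusted p = 0.049), close to the threshold, and did not pass at 24 months (-1.61 ± 0.839, adjusted p = 0.214). With upper-quartile factors the adjusted p at 12 months was 0.0517. Without 1-month replicate 3 the difference of CXCL9 was -1.85 and did not pass, nor did it without 1-month replicate 1 or any of the 12-month libraries. CXCL10 did not pass at either age (-2.77 ± 0.903, adjusted p = 0.074 and -1.41 ± 0.955, adjusted p = 0.33), although at 12 months DESeq2's Wald test (adjusted p = 0.00492) and edgeR's exact test (adjusted p = 0.0141) called it, as did the quasi-likelihood test without 1-month replicate 2 (-3.36 ± 0.655, adjusted p = 0.00956). CXCL11 was at most 0.556 CPM. CXCR3 itself stood at 2.07, 4.3 and 3.11 CPM at 1 month, 0.124, 0.165 and 0.437 at 12 months and 0.349, 0.565 and 1.14 at 24 months, fell at 12 months (-3.66 ± 0.691, adjusted p = 0.0178) and did not pass at 24 months (-2.09 ± 0.704, adjusted p = 0.0742), where DESeq2 (adjusted p = 0.0232) and the exact test (adjusted p = 0.0274) called it. Each older library of CXCR3 lay below each library at 1 month.

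CCL5, which T cells and natural killer cells release and which binds CCR1, differed little among the goats at 1 month. It stood at 5.21, 6.37 and 5.56 CPM at 1 month, 0.495, 0.33 and 0.611 at 12 months and 2.44, 2.37 and 4.39 at 24 months. The 3 ages thus did not overlap, with 12 months lowest and 24 months between. CCL5 fell at 12 months (-3.53 ± 0.452, adjusted p = 0.0084) and did not pass at 24 months (-0.79 ± 0.497, adjusted p = 0.297). CCL4, a related ligand read from LOC102180880, stood at 1.78, 3.21 and 4.53 CPM at 1 month, 0.577, 0.934 and 0.611 at 12 months and 0.93, 2.15 and 2.01 at 24 months and fell at 12 months as well (-2.11 ± 0.545, adjusted p = 0.0403, and -0.76 ± 0.636, adjusted p = 0.433 at 24 months). With no filter on low counts the adjusted p of CCL4 at 12 months was 0.0547. The 4 loci named CCL3 together stayed below 2 CPM in each library and did not pass when summed (-1.89 ± 0.591, adjusted p = 0.0665, and -1.45 ± 0.885, adjusted p = 0.282), although the exact test called 1 of these loci at 24 months. Cytotoxic lymphocyte markers summed to 17.8, 29.0 and 29.9 CPM at 1 month, 3.55, 1.26 and 3.77 at 12 months and 7.66, 6.1 and 8.47 at 24 months, and like CCL5 were lowest at 12 months.

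CCR1, a receptor of monocytes, macrophages and neutrophils, was read from 3 loci that share a product name, and reads from near-identical copies may have been divided among them. Summed over the loci it stood at 39.5, 47.0 and 84.4 CPM at 1 month, 15.8, 7.8 and 6.77 at 12 months and 9.83, 5.54 and 6.29 at 24 months. The sum fell at both ages (-2.43 ± 0.457, adjusted p = 0.0176, and -2.86 ± 0.451, adjusted p = 0.00751). Taken singly, CCR1 and LOC102179713 fell at both ages, and LOC102179993 fell at 12 months (-2.09 ± 0.523, adjusted p = 0.0375) and did not pass at 24 months (-3.16 ± 1.12, adjusted p = 0.0868). For LOC102179993 the fit of 9 libraries did not pass at 12 months (adjusted p = 0.132), whereas at 24 months that fit (adjusted p = 0.0409), DESeq2 (adjusted p = 0.00838) and the exact test (adjusted p = 0.0303) called it. CCR2, which brings monocytes out of the marrow towards CCL2 and CCL8, stood at 9.78, 3.47 and 27.4 CPM at 1 month, 6.41, 1.41 and 2.88 at 12 months and 2.0, 1.7 and 1.93 at 24 months. It fell at 24 months (-2.71 ± 0.725, adjusted p = 0.0366) and did not pass at 12 months (-1.83 ± 0.838, adjusted p = 0.156), except without 1-month replicate 2 (-2.37 ± 0.683, adjusted p = 0.034). The fall at 24 months did not pass without 1-month replicate 1 or 3 or without any 24-month library, and over all libraries left out in turn it ranged from -3.20 to -1.74. A second CCR2 locus, LOC102178953, had -2.92 ± 1.21 and -3.04 ± 1.12 and did not pass, but the exact test called it at 24 months, and it passed at both ages without 1-month replicate 2 (-3.50 ± 1.1, adjusted p = 0.0442 and -3.58 ± 0.944, adjusted p = 0.023). CCL2 did not pass (-0.80 ± 0.625, adjusted p = 0.372 and -1.35 ± 0.651, adjusted p = 0.18). CCL8 did not pass either (-2.60 ± 0.885, adjusted p = 0.0815 and -1.88 ± 0.888, adjusted p = 0.174), but at 12 months DESeq2 and the exact test called it, and so did the quasi-likelihood test without 1-month replicate 2 (-3.08 ± 0.843, adjusted p = 0.029). Macrophage markers summed to 261, 346 and 888 CPM at 1 month and to 108 to 215 later, and like CCR1 and CCR2 were highest in 1-month replicate 3.

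Of the eotaxins, ligands of the eosinophil receptor CCR3, CCL26 stood at 1.7, 1.55 and 1.89 CPM at 1 month, 0.165, 0.33 and 0.262 at 12 months and 0.116, 1.13 and 0.774 at 24 months and fell at 12 months (-2.66 ± 0.518, adjusted p = 0.0192). At 24 months it did not pass (-1.22 ± 0.83, adjusted p = 0.334), although its libraries at both older ages lay below those at 1 month. CCL24 did not pass (-1.28 ± 0.991, adjusted p = 0.367 and -0.52 ± 0.725, adjusted p = 0.647). XCR1, which marks the dendritic cells that cross-present antigen, stood at 2.7, 8.1 and 16.5 CPM at 1 month, 1.03, 0.879 and 0.306 at 12 months and 0.174, 1.07 and 1.75 at 24 months. It fell at 12 months (-3.53 ± 0.794, adjusted p = 0.0282) and did not pass at 24 months (-3.04 ± 0.939, adjusted p = 0.0577), where DESeq2 (adjusted p = 0.00288) and the exact test (adjusted p = 0.0114) called it. A pass at 1 age and not at the other does not show that the older ages differ. That comparison is given below for the members tested in it, and CCL26, CXCR3 and CXCL6 were not tested in it.

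A further set of members was high in 1-month replicate 3 alone. CXCR2, with CXCR1 the receptor that takes neutrophils to sites of infection, stood at 1.83, 1.52 and 22.6 CPM at 1 month, 1.57, 0.824 and 0.742 at 12 months and 0.872, 0.735 and 0.206 at 24 months. CXCR1 stood at 0.274, 0.422 and 7.77 CPM at 1 month and at no more than 0.165 later. It did not pass the filter in edgeR, and DESeq2 did not call it. The CC ligands CCL15, CCL16 and CCL18 showed the same library at the top, with 6.77, 1.97 and 70.9 CPM, 1.7, 0.035 and 19.8 CPM and 0, 0.74 and 12.4 CPM at 1 month. By the quasi-likelihood test with all libraries 0 of the tested genes of this set passed, each with an unadjusted p under 0.05. CXCR2 had -2.95 ± 1.12, adjusted p = 0.107 at 12 months and -3.68 ± 1.17, adjusted p = 0.0626 at 24 months, and CCL15 had -3.21 ± 1.22, adjusted p = 0.105 and -3.72 ± 1.17, adjusted p = 0.0605. The exact test called CXCR2 and CCL15 at both ages and CCL16 at 24 months, and DESeq2 called CCL15 and CCL16 at both ages and CCL18 at 12 months. Without 1-month replicate 2 CXCR2 and CCL15 passed the quasi-likelihood test at both ages. Their level rests on the library in which neutrophil markers summed to 646 CPM, and leaving that library out instead gave -0.67 for CXCR2 at 12 months and -1.38 at 24 months. At 24 months CXCR2 also passed without 1-month replicate 1 (-4.20, adjusted p = 0.0441). Of the neutrophil-attracting ligands, CXCL8 was below 1 CPM in each library. CXCL6, read from LOC102181582, stood at 2.03, 4.86 and 1.72 CPM at 1 month, 1.07, 0.11 and 0.262 at 12 months and 0.0581, 0.17 and 0.31 at 24 months and fell at 24 months (-3.79 ± 0.875, adjusted p = 0.0228), with -2.55 ± 0.905, adjusted p = 0.0903 at 12 months, where DESeq2 (adjusted p = 0.0232) and the exact test (adjusted p = 0.0321) called it. Over the 52 members tested against 1 month, replicate 3 was the highest 1-month library in 28 (53.8%), replicate 2 in 19 (36.5%) and replicate 1 in 5 (9.62%), whereas over all genes these shares were 26.4%, 41.2% and 32.5%.

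The membrane-anchored ligands CX3CL1 and CXCL16 had overlapping levels at all ages. CX3CL1, which endothelium and epithelium display, stood at 15.0, 21.5 and 19.8 CPM at 1 month, 10.4, 10.7 and 18.2 at 12 months and 15.1, 16.8 and 23.0 at 24 months. Its fold changes were -0.46 ± 0.341 and 0.08 ± 0.384, with approximate 95% intervals of -1.13 to 0.21 and -0.67 to 0.83. CX3CR1, its receptor on resident macrophages and monocytes, stood at 13.8, 1.48 and 12.2 CPM at 1 month, 13.3, 9.12 and 17.0 at 12 months and 16.0, 19.4 and 12.4 at 24 months. Only 1-month replicate 2 was low, and the gene did not pass (0.61 ± 0.727, adjusted p = 0.556 and 0.95 ± 0.707, adjusted p = 0.378). CXCL16 had fold changes of -0.36 ± 0.395 and -0.03 ± 0.448, with approximate 95% intervals of -1.14 to 0.41 and -0.91 to 0.85. Its receptor CXCR6 did not pass (-1.77 ± 0.679, adjusted p = 0.108 and -1.27 ± 0.73, adjusted p = 0.255). Without 1-month replicate 2 CXCR6 passed at 12 months (-2.28 ± 0.486, adjusted p = 0.0129) but not at 24 months (-1.73 ± 0.642, adjusted p = 0.0732). CCL14, a plasma chemokine, had fold changes of -0.30 ± 0.388 and -0.09 ± 0.463. Of the atypical receptors (ACKR1, ACKR2 at 3 loci, ACKR3, ACKR4 and CCRL2) 0 of 7 passed edgeR's quasi-likelihood test at 12 months, against 11.7% of all genes. At 24 months 0 of 6 tested passed, against 13.4%. DESeq2 and the exact test called 0 at both ages. By the quasi-likelihood test 1 (ACKR3) had an unadjusted p under 0.05 at 12 months, against 37.8% of all genes, and 0 at 24 months, against 34.3%. The median log2 fold changes of the atypical receptors were -0.75 and -0.68. With 6 or 7 genes, 0 calls do not show a share below that of all genes. ACKR4, which takes up CCL19, CCL21 and CCL25, stood at 4.22, 0.282 and 4.22 CPM at 1 month, 2.23, 1.76 and 0.48 at 12 months and 0.872, 0.282 and 1.03 at 24 months, and its groups overlapped. Without 1-month replicate 2, its lowest 1-month library, ACKR4 passed at 24 months (-2.43 ± 0.69, adjusted p = 0.0299).

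**Figure D3:**
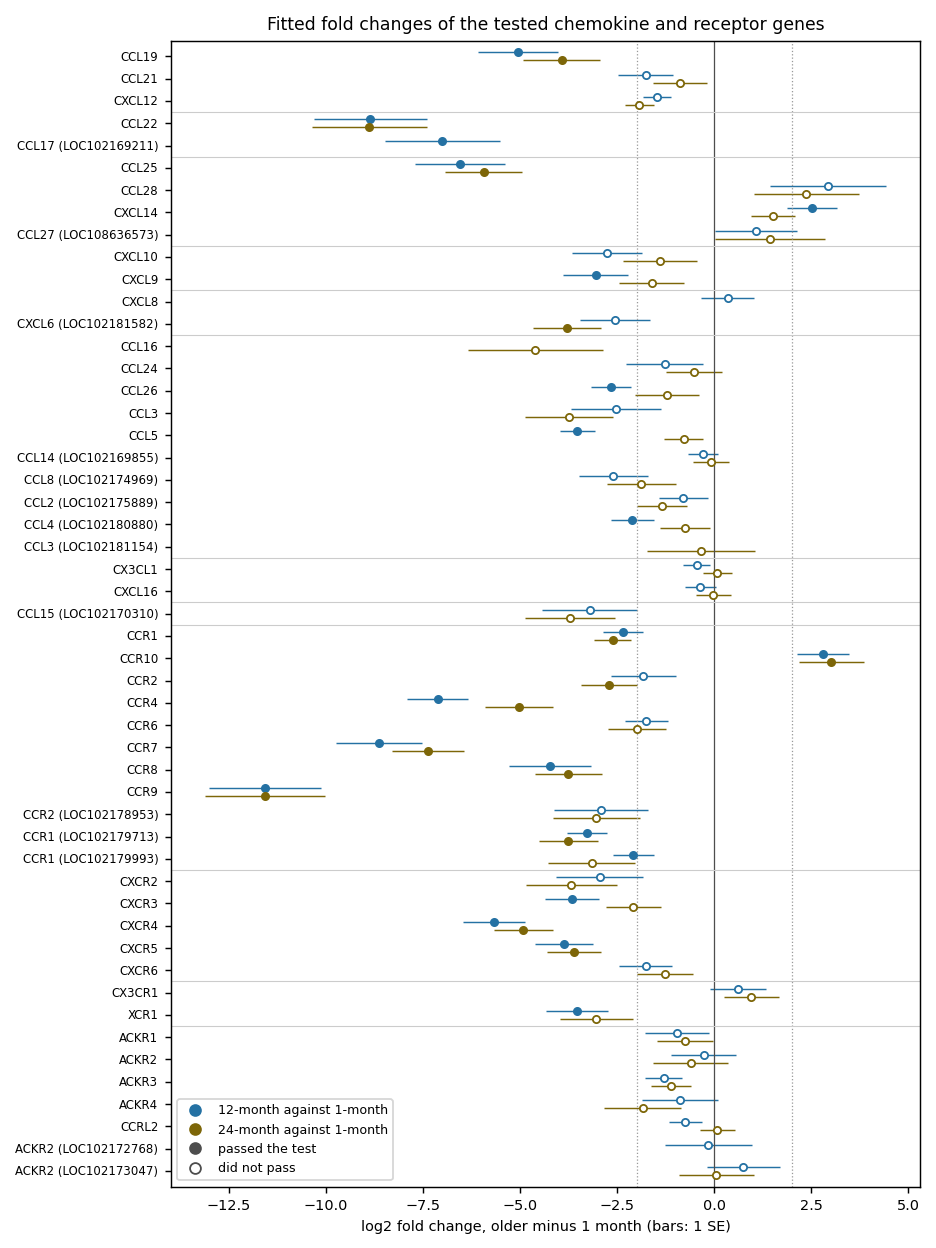
Fitted log2 fold change (older minus 1 month) of members tested against 1 month, with bars of 1 SE, filled where the gene passed the test, and dotted lines at -2 and 2. Rows are grouped by role, ligands above receptors. CCL17 at 24 months is not drawn because its libraries there were at 0.

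Ligands and receptors were then set side by side over 33 known pairs, with loci of 1 product summed. At 12 months both partners were tested in 21 pairs. In 6 of these both fell: CCL25 with CCR9, CCL19 with CCR7, CCL17 and CCL22 with CCR4, CXCL9 with CXCR3, and CCL5 with CCR1. The receptor alone fell in 4 pairs, among them CCL21 with CCR7 and CXCL12 with CXCR4, and the ligand alone fell in 2. The receptor alone rose in 2 (CCR10 with CCL27 and CCL28), neither partner passed in 7, and in 0 pairs did the partners pass in opposite directions. At 24 months both partners were tested in 20 pairs, of which 4 fell together (CCL25 with CCR9, CCL19 with CCR7, CCL17 and CCL22 with CCR4), 6 had the receptor alone lower, 2 had the receptor alone higher and 8 had neither. Pairs that share a receptor are not independent of each other. No share over pairs of other genes was computed, so an excess of pairs that fell together is not shown. Ligands listed under older product names, such as lymphotactin for XCR1, counted as untested in these pairs.

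**Figure D4:**
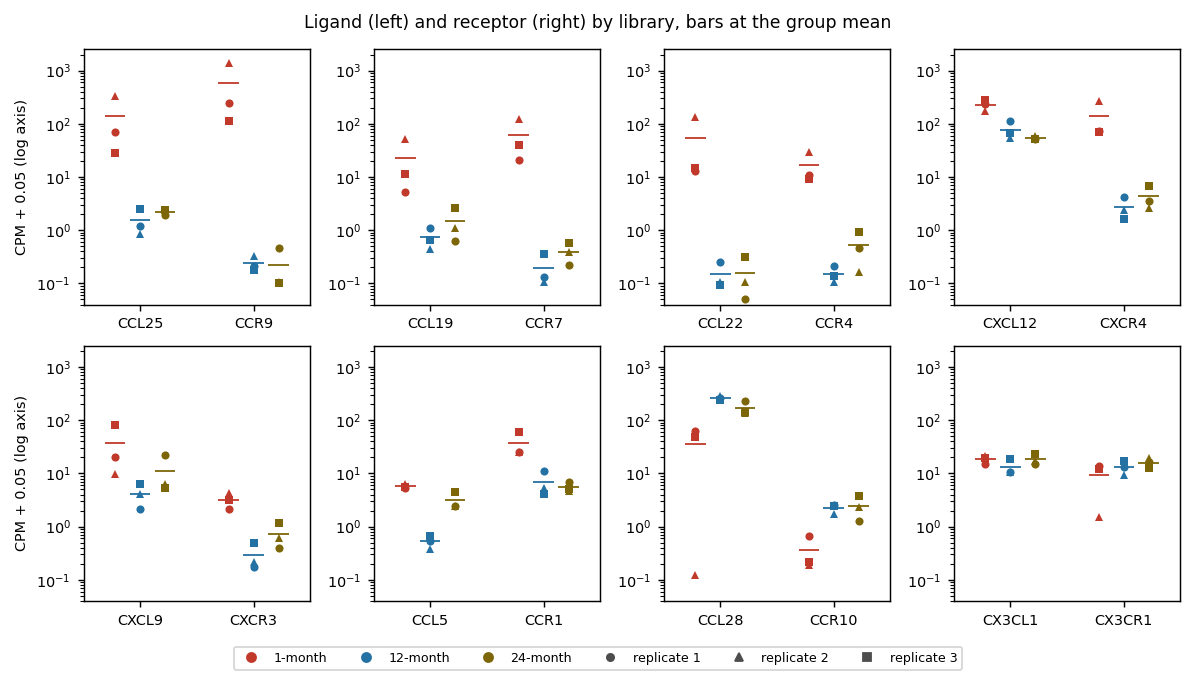
CPM + 0.05 (log axis) of 8 ligands (left in each panel) and a receptor of each (right), with 1 point per library coloured by age and a bar at the group mean. CCL25 with CCR9, CCL19 with CCR7 and CCL22 with CCR4 were lower in each older library, CCL28 with CCR10 lay higher, and CX3CL1 with CX3CR1 overlapped between the ages.

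Between 12 and 24 months the question was whether chemokines changed further in the adult gland. By edgeR's quasi-likelihood test 0 of 37 tested members passed, as did 0.0% of 14289 genes, and 6 members had an unadjusted p under 0.05 (10.9% of all genes did). The exact test of edgeR and the Wald test of DESeq2 each called 1 member, CCL5, which was higher at 24 months in each library (2.72 ± 0.536, adjusted p = 0.429 by the quasi-likelihood test, 0.0223 by DESeq2 and 0.008 by the exact test). Without 24-month replicate 1 CCL5 also passed the quasi-likelihood test (2.86, adjusted p = 0.0121). The other 5 were CCL4 (1.33 ± 0.571), CXCL9 (1.46 ± 0.603), CXCL10 (1.36 ± 0.551) and CCRL2 (0.81 ± 0.337), fitted higher at 24 months, and CXCL14 (-1.03 ± 0.393), fitted lower, each with an adjusted p of 0.429. The libraries of both ages did not overlap for 4 of 37 members (10.8%, against 15.5% of all genes): CCL5 and CCRL2 lay higher at 24 months (5.41%, against 7.94%), and CCL28 (-0.57 ± 0.26) and CXCL14 lay lower (5.41%, against 7.56%). CCRL2, an atypical receptor that presents chemerin, stood at 6.51, 3.52 and 4.85 CPM at 12 months and 8.14, 10.1 and 7.02 at 24 months.

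Genes that carry the signal of chemokine receptors inside the cell were read from 5 lists, and all 37 passed the filter on low counts. At 12 months 18 fell (48.6%, against 9.52% of all genes), and at 24 months 17 fell (45.9%, against 9.16%), with 0 higher at either age. Without 12-month replicates 1, 2 and 3 the count at 12 months was 0, 1 and 1, and without 24-month replicates 1, 2 and 3 the count at 24 months was 9, 4 and 2. The share of all genes called is not given for these fits either. Without 1-month replicate 2, 16 fell at 12 months (43.2%, against 10.4% of all genes) and 15 at 24 months (40.5%, against 9.73%). The lists hold leukocyte genes among others, and 19 of the 37 did not pass at 12 months and 20 at 24 months. Of the mature T cell markers 5 of 5 were lower at both ages, of the B cell markers 3 of 5 and of the macrophage markers 2 of 4 measured. Of the neutrophil markers 3 of 5 were lower at 12 months and 4 of 5 at 24 months. Of the cytotoxic lymphocyte markers 2 of 5 and 0 of 4 tested were lower, and of the plasma cell markers 0 of 5 at either age. The cytoskeletal list had 5 of 10 lower at both ages. RAC2, the Rac GTPase of leukocytes, fell from 178, 1238 and 309 CPM to 18.7, 14.1 and 16.7 CPM at 12 months (-5.10 ± 0.857, adjusted p = 0.0137) and 11.7, 19.9 and 34.6 CPM at 24 months (-4.62 ± 0.899, adjusted p = 0.0143). WAS, an actin regulator of blood cells, fell at both ages as well (-4.83 ± 0.714, adjusted p = 0.0108 and -4.19 ± 0.731, adjusted p = 0.0104).

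Of the list of PI3K gamma and Rac exchange factors 5 of 8 fell at 12 months and 4 of 8 at 24 months, and 4 of 8 at both ages without 1-month replicate 2. DOCK2, the exchange factor by which lymphocytes turn chemokine signals into movement, fell from 125, 384 and 182 CPM to 15.6, 10.9 and 14.1 CPM and 15.4, 13.4 and 16.7 CPM (-4.05 ± 0.53, adjusted p = 0.00872 and -3.83 ± 0.549, adjusted p = 0.0062). PIK3R5, PIK3CG and VAV1 fell at both ages too. Of the receptor kinases and arrestins, which switch receptors off, GRK3, GRK6 and ARRB2 fell at both ages, 3 of 6, but without 1-month replicate 2 the count at 24 months was 1 of 6. Of the RGS proteins, which shorten G protein signals, RGS14 and RGS19 fell at both ages and RGS1 at 24 months, that is 2 and 3 of 5. Of the G protein list 3 of 8 fell at 12 months (GNAI2, GNG2 and PLCB2) and 2 of 8 at 24 months (GNG2 and PLCB2). GNAI2 lay at the threshold at 12 months (-2.0 ± 0.505, adjusted p = 0.038), and without 1-month replicate 2 the count was 2 of 8 at both ages. Between 12 and 24 months 0 of 37 passed by the quasi-likelihood test, by DESeq2 or by the exact test. By the quasi-likelihood test 0.0% of all genes passed too. An unadjusted p under 0.05 was reached by 2 of the 37, against 10.9% of all genes.

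In the RefSeq annotation of the goat many members are neighbours. In a block of receptor genes that holds CCR9, XCR1, CXCR6 and 2 CCR1 loci, CCR9, XCR1 and both CCR1 loci fell at 12 months and CCR9 and 1 CCR1 locus at 24 months, while CXCR6 did not pass. In the block of CCL22, CX3CL1 and the CCL17 loci 2 of 3 tested genes fell at both ages while CX3CL1, which lies between them, did not pass. The transcripts of CXCL12 were also compared. The share of CXCL12 counts given to transcript XM_018042298.1 was 9.99%, 4.18% and 7.87% at 1 month, 20.6%, 22.5% and 27.6% at 12 months, and 22.2%, 21.6% and 30.8% at 24 months, while XM_018042300.1 made up 83.2% to 88.0% at 1 month and 64.2% to 76.3% later. The groups did not overlap, and the two-sided exact permutation test gave p = 0.1, the smallest that 3 against 3 libraries allow. Over 57 such tests of 19 transcripts of 8 genes 4 reached that value, and the smallest adjusted p was 1.0, so no difference in transcript use was shown.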

How the data were processed

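Total RNA of 9 samples labelled as submandibular gland was fragmented and sequenced on an Illumina HiSeq instrument. Per the study's methods, the authors removed ribosomal reads with Bowtie2 2.2.8, aligned the rest to a goat genome whose build is not given in the sources used here with TopHat2 2.1.1, assembled transcripts with Cufflinks and quantified them with RSEM. The deposited table gives expected counts of each transcript, which the authors did not normalize for depth or length. Of the values above 0, 3.49% were whole numbers. The table lists 52739 transcripts, 42686 known and 10053 new.

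Expected counts were summed per gene and rounded to whole numbers, and CPM were computed with TMM library sizes over 9 libraries. The groups were taken from the sample titles. Each pair of ages was fitted with its 6 libraries in edgeR 4.0.16 (R 4.3.3) with filterByExpr, TMM, glmQLFit and glmQLFTest and Benjamini-Hochberg adjustment over all genes tested. The threshold on FPKM that the study's rule adds was not applied, since the table holds no FPKM. The test was checked on simulated data. Alternatives were DESeq2 1.42.0 (size factors and Wald test), upper-quartile factors, edgeR's exact test, no filter, 9 libraries in 1 fit, transcripts in place of genes, no fold threshold, a block on the replicate number and the omission of each library in turn. Library totals and genes of 1 product summed were added after seeing the data.

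Named genes are the members called in at least 1 comparison, tested partners in known pairs, members whose 12-month and 24-month libraries do not overlap, the called signalling genes (at most 4 per list) and defining markers. The members and lists were chosen with earlier results of these data known. Gene names came from the table and the RefSeq goat annotation, which was used for names and neighbours alone. Intervals on counts cover counting error only, and differences below 3 counts were not detectable. Results on some genes are not reported here. No library pair agreed within sampling noise. The erythroid, skeletal muscle, duct, endothelial, lymph node stroma and cell cycle marker lists were also summed: cell cycle markers were 943, 2454 and 797 CPM at 1 month and 9.89 to 34.1 later, lymph node stroma 48.5, 5.92 and 162 and 9.6 to 34.6, lymphatic endothelium 43.9, 9.58 and 172 and 19.5 to 41.3, blood endothelium 345 to 638 and 292 to 566, duct 138 to 303 and 502 to 1209, erythroid 2.5 to 7.5 and 0.453 to 0.774, and skeletal muscle 1.28 to 24.6 and 1.11 to 40.6.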

Additional observations from a re-analysis of the deposited data

How the results depend on the processing

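At 12 months the count of 21 called members became 7 with the replicate number as a block, and 7 genes had a called transcript when transcripts were tested in place of genes. At 24 months the count of 15 became 23 with DESeq2's Wald test, 23 with edgeR's exact test, 23 with 9 libraries in 1 fit and 5 by transcripts. Between 12 and 24 months DESeq2 and the exact test each gave 1 in place of 0. Of the signalling genes, transcripts gave 11 in place of 18 at 12 months and 6 in place of 17 at 24 months. Leaving out 1 library gave 0 to 33 members at 12 months, 4 to 25 at 24 months and 0 to 1 between the older ages, and 0 to 21, 2 to 18 and 0 signalling genes. Fits without a library hold fewer samples, and the cause of the other differences was not tested. The share of all genes called is given above only for the quasi-likelihood test with all libraries and without 1-month replicate 2. For the other settings here and in the next paragraph a change particular to the members or signalling genes is therefore not shown. DESeq2's size factors, upper-quartile factors, no filter, no fold threshold and genes of 1 product summed kept each count within 1.5 times its value.

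Replicate numbers did not mark shared animals. Deviations of same-numbered libraries correlated at -0.121 to -0.108 at 12 against 1 month and -0.234 to 0.42 at 24 against 1 month, so the numbers were not treated as pairs, and with the replicate block the counts of members were 7, 14 and 0 and of signalling genes 13, 16 and 0. Scaling by library totals moved the median log2 fold change of all genes to -0.51 at 12 months, -0.71 at 24 months and -0.17 between the older ages, and gave 21 lower and 0 higher members at both ages against 1 month. Of the single genes, CXCL10 at 24 months changed sign without 1-month replicate 3, with a range of -2.1 to 0.24 over the libraries left out. DESeq2 gave no adjusted p for CCL22. Depth limits the folds of members such as CCR4, CCR7, CCR8, CCR9, CCL17 and CCL22, whose older libraries held few counts or 0.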

Other observations

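A further 10 genes encode chemokines under older product names and lay outside the rule on symbols and descriptions. Regakine-1 (LOC102170772), a CC chemokine of ruminants that draws neutrophils and lymphocytes, stood at 34.5, 62.5 and 192 CPM at 1 month, 2.39, 2.31 and 1.0 at 12 months and 2.38, 3.79 and 3.41 at 24 months. Each older library lay below each library at 1 month, and it fell at both ages by edgeR's quasi-likelihood test (-5.58 ± 0.785, adjusted p = 0.0099 and -4.77 ± 0.707, adjusted p = 0.00672). Like CXCR2 and CCL15 it was highest in 1-month replicate 3. Lymphotactin, the ligand of XCR1 that T cells and natural killer cells release, was listed at 2 neighbouring loci. LOC102190717 stood at 1.89, 1.02 and 7.03 CPM at 1 month, 0.041, 0 and 0.175 at 12 months and 0.174, 0.226 and 0.413 at 24 months and fell at both ages (-5.30 ± 1.16, adjusted p = 0.0267 and -3.42 ± 0.911, adjusted p = 0.0361), as XCR1 did at 12 months. LOC102190981 was untested, with 0.296, 0.176 and 1.64 CPM at 1 month and 0 later.

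Platelet basic protein (PPBP), a neutrophil attractant of platelets, was at 0, 0.106 and 4.03 CPM at 1 month and at 0 in the older libraries, at least 8.43-fold lower at 12 months and 8.94-fold lower at 24 months with those libraries set to 3 counts each, and its 1-month counts lay almost wholly in replicate 3. Platelet factor 4 (LOC102181854) had the same library at the top, with 0.592, 0.317 and 5.75 CPM at 1 month. Of the growth-regulated proteins, ligands of CXCR2, LOC102182395 did not pass (0.37 ± 0.936, adjusted p = 0.787 and 0.46 ± 0.863, adjusted p = 0.742).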
